A study of Mus musculus with 20 samples.

Results

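Oxidative phosphorylation in the mitochondrial inner membrane was examined in the diaphragm of mice that had received long or short fibers in the pleural cavity. The genes comprised those whose array name begins with Nduf, Uqcr or Atp5, or with Cox4, Cox5, Cox6, Cox7 or Cox8, together with Sdha, Sdhb, Sdhc, Sdhd and Cycs. This rule found 91 of the 34797 gene names on the array, and it used names alone, no measured value. By complex, 38 genes fell to complex I, 4 to complex II, 8 to complex III, 18 to complex IV and 15 to complex V. Cycs stood alone as the mobile carrier, 4 further genes encode complex I assembly factors (Ndufaf1 to Ndufaf4), and 3 were matched by name only, since Cox4nb, Atp5s and Atp5sl are now called Emc8, Dmac2l and Dmac2. Each gene was represented by its probe with the highest mean signal.

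The 5 groups were female C57Bl/6 mice that were 8 weeks old when injected once into the pleural space and were examined 12 weeks later. The vehicle control (VC) mice received saline with bovine serum albumin, which also carried the fibers given to the other 4 groups. Short fiber amosite (SFA) and long fiber amosite (LFA), both made from the same batch of this asbestos, were given at 25 µg per mouse, and short (SNT) and long (LNT) carbon nanotubes at 5 µg per mouse. Because the doses differ, LFA and LNT are set side by side below as groups and not as materials at a matched dose. The short nanotubes were a commercial product, whereas the long ones were made in a university laboratory. Each of the 20 arrays held the RNA of 1 mouse, 4 mice per group, from the portion of the diaphragm that was snap frozen, so that muscle, pleural surface and any lesion on it were measured together.

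The oxidative phosphorylation system passes electrons from NADH (complex I) and succinate (complex II) through ubiquinone to complex III, then through cytochrome c to complex IV, where oxygen is reduced, and the proton gradient built on the way drives ATP synthesis by complex V. Most of its subunits are encoded in the nucleus and a few in mitochondrial DNA. The diaphragm contracts throughout life and is among the most oxidative of skeletal muscles, and several subunits of complex IV exist there as a muscle isoform beside a ubiquitous one.

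The start regions of 4 of these genes are given because they show the kinds of regulatory sequence the nuclear genes carry, and because Cox6a1 and Cox8b belong to subunits that have both a ubiquitous and a muscle isoform. Each run holds the 200 bases before the annotated start, read 5′ to 3′ on the gene's strand (minus in all 4), from RefSeq on GRCm38.p6. Capitals mark a match to the motif of NRF1 (CGCATGCG), ERR (TCAAGGTCA) or GABP (CCGGAAG), in either orientation. The regions are chr6:50566570-50566769 for Cycs (cytochrome c), chr2:73911327-73911526 for Atp5g3 (a c subunit of the complex V rotor), chr5:115348959-115349158 for Cox6a1 (the ubiquitous isoform of subunit VIa) and chr7:140900447-140900646 for Cox8b (the muscle isoform of subunit VIII).
Cycs: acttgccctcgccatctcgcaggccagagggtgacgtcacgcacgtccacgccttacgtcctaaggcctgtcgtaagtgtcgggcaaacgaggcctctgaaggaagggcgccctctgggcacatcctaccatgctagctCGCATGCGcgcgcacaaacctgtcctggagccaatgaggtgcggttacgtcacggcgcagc
Atp5g3: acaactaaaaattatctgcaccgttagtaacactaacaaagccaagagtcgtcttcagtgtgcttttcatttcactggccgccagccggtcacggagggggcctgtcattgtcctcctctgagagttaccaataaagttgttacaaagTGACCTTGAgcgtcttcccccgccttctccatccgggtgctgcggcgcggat
Cox6a1: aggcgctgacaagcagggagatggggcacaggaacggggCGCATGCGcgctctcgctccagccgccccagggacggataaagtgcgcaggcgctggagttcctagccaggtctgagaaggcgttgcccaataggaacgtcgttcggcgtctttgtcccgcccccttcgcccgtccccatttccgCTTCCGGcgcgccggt
Cox8b: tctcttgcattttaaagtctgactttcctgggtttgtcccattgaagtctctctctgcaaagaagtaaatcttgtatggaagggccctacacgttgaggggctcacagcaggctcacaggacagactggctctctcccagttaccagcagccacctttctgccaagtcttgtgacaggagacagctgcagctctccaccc
The Cycs match to NRF1 began 61 bases before the start and the Atp5g3 match to ERR 52 bases before it. In Cox6a1 the NRF1 match lay 161 and the GABP match 16 bases before the start, whereas Cox8b held none of these letters in this window.

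Signals are given as log2 values relative to the 75th percentile of the same array, so that a difference of -1 is a 2-fold lower signal, and a gene was called changed at an adjusted p below 0.05 (limma, Benjamini-Hochberg over all 36920 probes tested). Of the 91 genes, 89 were well above background on 20 of 20 arrays and were tested. The remaining genes, Cox7b2 and Cox8c, were well above background on 0 of 20. All 20 skeletal muscle markers examined were well above background on 20 of 20 arrays, so that the label of the tissue and the markers did not conflict. The arrays differed in brightness, the 75th percentile of the signal ranging from 292 to 991 units, and 53.0% to 68.1% of spots were well above background. VC replicate 2 was the dimmest array and stood apart in these genes, SNT replicates 3 and 4 differed from SNT replicates 1 and 2 in the Cox6a and Cox8 isoform pairs, and 5 arrays, 1 in each group and VC replicate 2 among them, had the lowest ratio of 5′ to 3′ probe signal, which falls when RNA is degraded. The counts for the whole set are therefore also given without VC replicate 2 and without these 5 arrays, the latter an alternative chosen after seeing the data. Nothing in the labels describes the 4 mice of a group beyond their number, and the p-values measure the spread between these mice.

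Oxidative phosphorylation genes were lower in the diaphragms of both long fiber groups. In LNT mice all 89 tested genes lay below VC, with a median log2 change of -1.04 (2.05-fold lower), and 37 of them fell at an adjusted p below 0.05, against 4.01% of all probes tested. Of these, 33 fell at least 2-fold, against 3.16% of all probes. In LFA mice 88 of 89 lay below VC, with a median of -0.88 (1.85-fold lower), and 8 fell, against 2.09% of all probes, 5 of them at least 2-fold, against 1.75%. No gene of the set rose in either group. Of all 25482 genes tested, 16338 lay below VC in LFA and 16336 in LNT. Across all genes tested the median change was -0.24 for LFA and -0.24 for LNT, so that relative to it the set stood at -0.64 and -0.80. Without VC replicate 2 the medians were -0.54 for LFA and -0.69 for LNT, and the counts 1 (Atp5d) and 5 (Atp5d, Atp5g1, Cox6b1, Ndufs7 and Uqcrc1), against 0.821% and 1.89% of all probes. Every other call of a gene of the set against VC was lost without that mouse. With the array of lowest 5′ to 3′ index left out of each group the medians were -0.74 and -0.82 and the counts 21 and 38, against 3.46% and 2.71%, the calls including all 8 LFA genes and 28 of the 37 LNT genes. With the index as a covariate the counts were 76 and 79, against 8.35% and 11.7%. Leaving out 1 mouse at a time gave 0 to 23 genes in LFA and 3 to 45 in LNT. The 23 came without SNT replicate 4, against 5.8% of all probes. The direction of both medians was the same under every scaling tried, but the fall on the absolute scale was not. With unscaled signals all genes shifted by 0.27 for LFA and 0.38 for LNT, and the set lay at -0.37 and -0.42 with 0 genes called. Leaving out the scaling moves all genes of an array alike. The set therefore had to stay at -0.64 and -0.80 relative to all genes. In bulk tissue, fewer muscle fibers and less RNA per fiber cannot be told apart.

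In the short fiber groups no gene of the set passed. In SFA mice the median change was -0.28, 87 of 89 lay below VC, and limma called 0 (0.0% of all probes), with 0 below an unadjusted p of 0.05, against 1.22% of all probes. In SNT mice the median was -0.09, 70 of 89 lay below VC, and 0 were called (0.0% of all probes), again with 0 at an unadjusted p below 0.05, against 1.87%. Of all 25482 genes tested, 15149 lay below VC in SFA and 15016 in SNT. A test with unequal variances also called 0 genes of the set in both. The direction in both groups rested on VC replicate 2: without it the medians were 0.06 in SFA and 0.22 in SNT, with 31 and 11 of 89 genes below VC and 0 called. At an unadjusted p below 0.05, by contrast, 71 genes were lower in LFA, against 17.3% of all probes, and 80 in LNT, against 15.8%. All 4 comparisons share the same VC mice. The 4 LFA mice all lay below the lowest VC mouse for 32 genes, against 11.8% of all probes, and the 4 LNT mice for 61, against 13.9%.

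**Figure D1:**
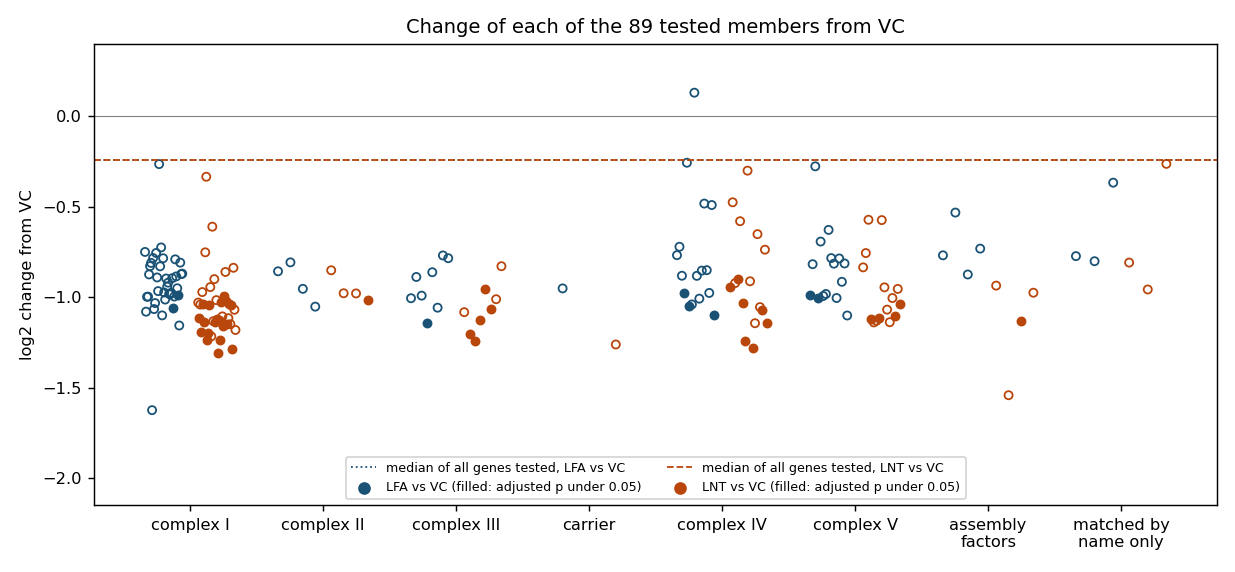
Change of each tested gene from VC (log2, y axis) in LFA and in LNT mice, by complex (x axis), 1 point per gene in alphabetical order, filled where the adjusted p is below 0.05 and open where it is not. Nearly all points lie below 0, and the LNT median of -1.04 is below the LFA median of -0.88, whereas the line for all genes tested is at -0.24 in both.

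Within a group the mice differed. With each gene centered on its median over the 20 arrays, the median over the 89 genes was 0.18, 1.43, 0.00 and 0.04 in VC replicates 1 to 4. It was -0.72, -0.91, 0.01 and -0.23 in the LFA mice and -0.72, -0.21, -0.53 and -0.88 in the LNT mice. The 4 LNT mice thus all lay below the 4 VC mice, whereas LFA replicate 3 lay level with the lower VC mice. SFA mice ranged from -0.04 to 0.29 and SNT mice from 0.01 to 0.43. The mean ± SD was 0.41 ± 0.68 for VC, 0.13 ± 0.15 for SFA, -0.46 ± 0.42 for LFA, 0.31 ± 0.20 for SNT and -0.59 ± 0.29 for LNT (n = 4 each). VC replicate 2 set the spread of its group and lay far above the next VC mouse. The 75th percentile of the signal was 545, 292, 647 and 600 units in VC replicates 1 to 4, 961, 860, 547 and 570 in LFA and 862, 530, 991 and 758 in LNT. LFA replicates 3 and 4 and LNT replicate 2 were the dimmest long fiber arrays and had the highest medians of these groups. With array brightness as a covariate, 1 gene of the set was called in LFA and 1 in LNT.

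**Figure D2:**
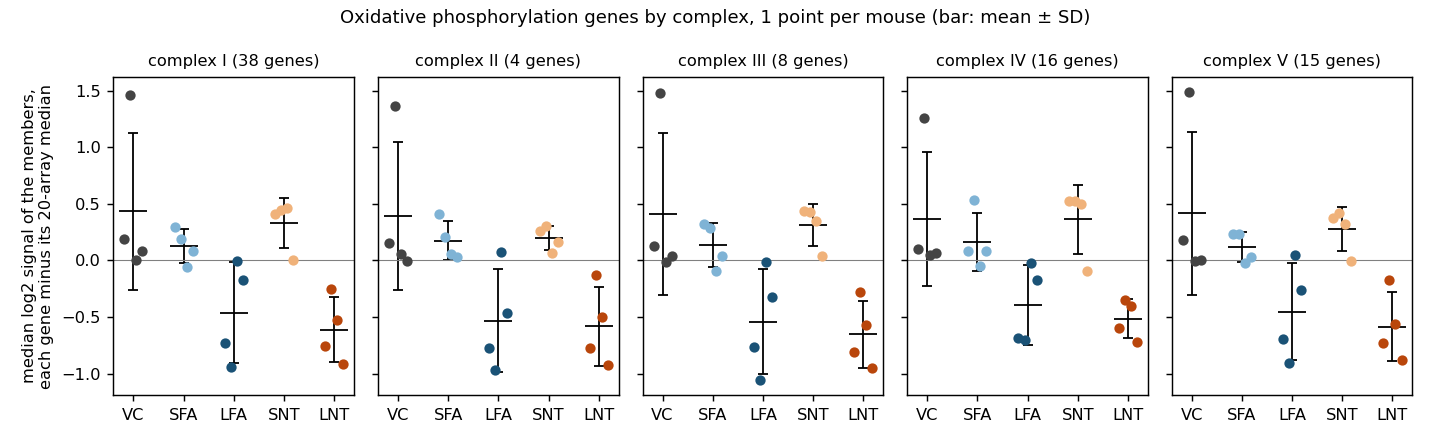
Median log2 signal of the genes of each complex (y axis, each gene minus its 20-array median) in each mouse (points) by group (x axis), with the mean ± SD of the group as a bar. In every panel the LNT mice lie low and 1 VC mouse, replicate 2, lies far above the other 3, at 1.43 over all 89 genes.

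The 3 slides held the groups unevenly. On slide 2, with 2 VC mice (replicate 2 among them), the median change of the set from the VC mice of that slide was -1.53 for 1 LFA mouse and -1.54 for 1 LNT mouse, against -0.52 for SFA and -0.34 for SNT. On slide 3, with 1 VC mouse, it was -0.97 for 1 LFA mouse, -0.58 for 3 LNT mice and 0.03 for SFA. On slide 1, again with 1 VC mouse, the 2 LFA mice lay at -0.16 and the 2 SNT mice at 0.12. The LNT mice thus lay lower on both slides that held any, and the LFA mice of slide 1 lay close to the VC mouse there. The slide as a block left 1 gene called in LFA and 2 in LNT.

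Complex I, the entry point for electrons from NADH, is the largest of the complexes. Its 38 genes had a median change of -0.93 in LFA and -1.09 in LNT, and 2 and 19 of them fell. Over all probes 2.09% fell in LFA and 4.01% in LNT, the shares beside which the counts of the other complexes stand too. Single genes of complex I ranged from -1.31 to -0.33 in LNT, none above 0. Ndufs8 encodes a subunit of the hydrophilic arm that carries iron-sulfur clusters, and its probe lies at chr19:3911177-3911236 (mm9). Its log2 signal was 5.27, 6.29, 5.03 and 5.43 in the VC mice, 4.24, 3.59, 4.72 and 4.85 in LFA and 4.07, 4.50, 4.43 and 3.90 in LNT. Every LFA and LNT mouse lay below every VC mouse. It fell by 1.28 ± 0.34 (SE) in LNT (adjusted p = 0.0268, limma), and its change in LFA was -1.16 ± 0.34 (adjusted p = 0.0583). SFA mice read 5.17, 4.05, 4.89 and 5.31 and SNT mice 5.23, 5.46, 5.48 and 4.84, and SFA replicate 2 was as low as the long fiber mice. Without VC replicate 2 the LNT change was -1.02 and no longer passed (adjusted p = 0.0831).

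The accessory subunits of complex I surround the catalytic core, and the 5 given first were taken for the size of their changes. In LNT Ndufb5 fell by 1.31 ± 0.39 (adjusted p = 0.0492), Ndufb7 by 1.24 ± 0.31 (0.0223), Ndufa5 by 1.24 ± 0.37 (0.0466) and Ndufa6 by 1.20 ± 0.31 (0.0259) on the log2 scale. Ndufa3 fell by 1.14 ± 0.32 (adjusted p = 0.0372). None of these 5 passed in LFA, where their changes were -1.01, -0.94, -1.06, -1.03 and -0.81, and without VC replicate 2 none passed in LNT (adjusted p = 0.142, 0.0568, 0.133, 0.0627 and 0.0939). Other accessory subunits did not pass in LNT, among them Ndufab1 at -0.61 and Ndufa1 at -1.03 (adjusted p = 0.316 and 0.104). Ndufa11 did not pass against VC (-1.04 in LNT), but fell by 1.20 ± 0.36 against SNT (adjusted p = 0.0468). Ndufs7, a core subunit near the quinone site named here after its values were seen, fell in LFA by 0.99 ± 0.25 (adjusted p = 0.0317, and 0.0735 without VC replicate 2). Ndufs7 read 7.87, 8.58, 7.91 and 8.14 in VC, 6.90, 6.79, 7.41 and 7.45 in LFA and 7.14, 7.01, 7.10 and 7.09 in LNT. The LNT mice were close to each other and below every VC mouse.

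Ndufa4 had 1 mouse in each group far below the other 3. Although named for complex I, it is known to associate with complex IV. Its probe read 7.87, 4.04, 6.99 and 6.95 in VC, 3.02, 7.91, 6.08 and 7.38 in SFA and 6.87, 5.99, 0.41 and 6.10 in LFA. It read 7.55, 7.40, 7.40 and 2.92 in SNT and 6.70, 3.31, 6.59 and 6.25 in LNT. The 5 low mice had the lowest 5′ to 3′ index of their groups (-1.53, -1.61, -1.56, -1.39 and -1.50, against -1.26 to -0.62 in the other 15). Its change was -1.62 ± 1.43 in LFA (adjusted p = 0.501) and -0.75 ± 1.43 in LNT (adjusted p = 0.804), so that a difference could not be resolved. With the index as a covariate it was -0.26 and -0.13, without the 5 low arrays -0.95 and -0.76 and without VC replicate 2 -2.43 and -1.56, and none passed. Its relative Ndufa4l2 changed by -0.78 in LFA and -0.33 in LNT, and neither passed.

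**Figure D3:**
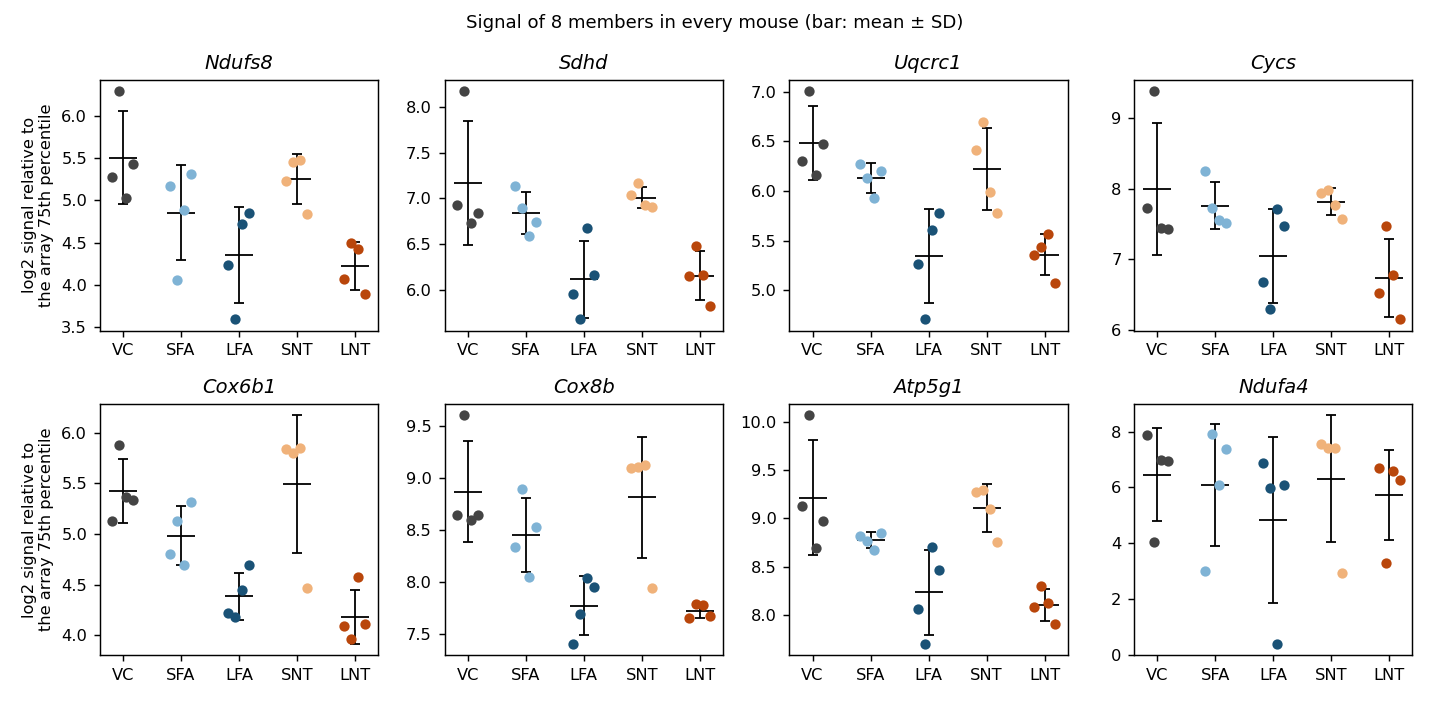
Log2 signal relative to the array's 75th percentile (y axis) of 8 genes in each mouse (points) by group (x axis), with the mean ± SD as a bar. The LNT mice lie below the VC mice for Ndufs8, Sdhd, Uqcrc1, Cox6b1, Cox8b and Atp5g1, whereas Ndufa4 shows 1 very low mouse in each group, at 0.41 in LFA replicate 3.

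Complex II, which is also the succinate dehydrogenase of the citric acid cycle, is the only complex here encoded wholly in the nucleus. Over its 4 genes the median change was -0.90 for LFA and -0.98 for LNT mice, and 0 and 1 fell. Sdhd, a membrane anchor whose probe lies at chr9:50404630-50404689 (mm9), read 6.93, 8.17, 6.73 and 6.84 in VC, 5.95, 5.68, 6.67 and 6.16 in LFA and 6.16, 6.48, 6.16 and 5.82 in LNT. It fell by 1.01 ± 0.29 in LNT (adjusted p = 0.0417), and at -1.05 ± 0.29 in LFA it missed the threshold (adjusted p = 0.0501). All 8 long fiber mice lay below all 4 VC mice. SFA mice read 7.13, 6.89, 6.58 and 6.75 and SNT mice 7.03, 7.17, 6.93 and 6.90. The flavoprotein Sdha, the iron-sulfur subunit Sdhb and the other anchor Sdhc did not pass, with changes of -0.86, -0.81 and -0.95 in LFA and -0.85, -0.98 and -0.98 in LNT. With VC replicate 2 left out, Sdhd did not pass either (-0.68 in LNT, adjusted p = 0.106).

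Complex III, which passes electrons from ubiquinol to cytochrome c, stood at a median change of -0.94 for LFA and -1.07 for LNT over 8 genes, and 1 and 5 fell. Uqcrc1, a core subunit whose probe spans chr9:108851008-108851487 (mm9), read 6.30, 7.01, 6.16 and 6.47 in VC, 5.27, 4.71, 5.61 and 5.78 in LFA and 5.36, 5.44, 5.57 and 5.07 in LNT. SFA mice read 6.28, 6.13, 5.92 and 6.20 and SNT mice 6.42, 6.70, 5.99 and 5.78. No long fiber mouse reached the lowest VC mouse, while the SFA mice overlapped the VC mice. Uqcrc1 fell by 1.14 ± 0.27 in LFA (adjusted p = 0.0250, the lowest of the set in that comparison) and by 1.12 ± 0.27 in LNT (adjusted p = 0.0161). Without VC replicate 2 the LNT call held (adjusted p = 0.0473) and that in LFA did not (adjusted p = 0.0602).

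The Rieske iron-sulfur protein Uqcrfs1 and the small subunits Uqcrb and Uqcr11 fell in LNT by 1.07 ± 0.30 (adjusted p = 0.0375), 1.24 ± 0.37 (0.0438) and 1.20 ± 0.34 (0.0391) on the log2 scale. In LFA they changed by -1.06, -0.99 and -0.89, and none passed, nor did any in LNT without VC replicate 2 (adjusted p = 0.0999, 0.120 and 0.103). Cycs, cytochrome c itself, had a larger mean change in LNT than its neighbors but also a wider spread. It read 7.72, 9.38, 7.45 and 7.42 in VC, 6.68, 6.30, 7.72 and 7.47 in LFA and 6.53, 7.47, 6.78 and 6.15 in LNT. LFA replicates 3 and 4 and LNT replicate 2 lay within the range of the VC mice. The change was -0.95 ± 0.41 in LFA (adjusted p = 0.171) and -1.26 ± 0.41 in LNT (adjusted p = 0.0679).

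Complex IV, cytochrome c oxidase, stood at a median change of -0.87 for LFA and -0.93 for LNT over 16 tested genes, and 3 and 7 fell. Cox6b1, which faces the intermembrane space near the cytochrome c site, had the lowest adjusted p of the set against short nanotubes. It read 5.13, 5.88, 5.36 and 5.34 in VC, 4.80, 5.13, 4.69 and 5.32 in SFA and 4.22, 4.18, 4.45 and 4.69 in LFA. It read 5.84, 5.80, 5.85 and 4.47 in SNT and 4.09, 3.96, 4.57 and 4.11 in LNT. All long fiber mice lay below all VC mice, but SNT replicate 4 lay below every VC mouse too. Cox6b1 fell by 1.24 ± 0.29 in LNT against VC (adjusted p = 0.0157) and by 1.31 ± 0.29 against SNT (adjusted p = 0.00983), and its change in LFA was -1.04 ± 0.29 (adjusted p = 0.0521). Cox4i1, the ubiquitous subunit IV, fell by 0.95 ± 0.27 in LNT (adjusted p = 0.0364), and Cox7b changed by -1.05 in LNT (adjusted p = 0.0566). The dim relatives Cox4i2, an isoform known from lung, and Cox6b2, an isoform known from testis, changed by -0.72 and 0.13 in LFA and by -0.47 and -0.30 in LNT, and neither passed.

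The muscle isoforms Cox6a2 and Cox8b of complex IV fell in both long fiber groups and Cox7a1 in LNT. No difference between a muscle and a ubiquitous isoform passed after adjustment, as given further on, but the long fiber groups alone could not have passed that test. Cox6a2, the muscle form of subunit VIa at chr7:135349160-135349219 (mm9), read 9.42, 10.30, 9.19 and 9.43 in VC, 8.12, 8.35, 8.93 and 8.74 in LFA and 8.38, 8.73, 8.69 and 8.41 in LNT. It fell by 1.05 ± 0.28 in LFA (adjusted p = 0.0393) and by 1.03 ± 0.28 in LNT (adjusted p = 0.0283). Its ubiquitous counterpart Cox6a1 read 7.65, 9.02, 7.87 and 7.60 in VC, 7.80, 7.36, 8.21 and 7.75 in LFA and 7.38, 7.76, 7.43 and 7.25 in LNT, and changed by -0.26 ± 0.35 and -0.58 ± 0.35 (adjusted p = 0.674 and 0.338). The LFA mice overlapped the VC mice for Cox6a1 and not for Cox6a2. With quantile normalization the Cox6a1 changes were 0.24 and 0.03, of opposite sign and again not passing, and they turned with unscaled signals as well. Cox8b, the muscle form of subunit VIII whose start region is printed above, read 8.64, 9.60, 8.59 and 8.64 in VC, 7.41, 7.69, 8.04 and 7.95 in LFA and 7.66, 7.79, 7.78 and 7.67 in LNT. It fell by 1.10 ± 0.30 in LFA (adjusted p = 0.0435) and by 1.14 ± 0.30 in LNT (adjusted p = 0.0246), against -0.49 and -0.74 for Cox8a, the ubiquitous form, which did not pass and whose sign in LFA turned with unscaled signals. Cox7a1, the muscle form of subunit VIIa, fell by 1.28 ± 0.35 in LNT (adjusted p = 0.0323) and did not pass in LFA (-1.01, adjusted p = 0.0988), and here the ubiquitous Cox7a2 moved nearly as far, by -0.85 in LFA and -1.14 in LNT, and fell against SNT by 1.20 ± 0.37 (adjusted p = 0.0494). Without VC replicate 2 neither Cox6a2 (adjusted p = 0.0906 in LFA and 0.0800 in LNT) nor Cox8b (0.101 and 0.0726) passed, nor did Cox7a1 in LNT (0.0921).

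Taking the muscle minus the ubiquitous isoform within each array removes whatever scales both alike, VC replicate 2 included. Relative to the VC mean, the Cox6a2 minus Cox6a1 difference was 0.22, -0.27, -0.23 and 0.28 in the VC mice, -1.22, -0.56, -0.83 and -0.55 in LFA and -0.55, -0.58, -0.29 and -0.38 in LNT. All 8 long fiber mice lay below all VC mice, and the mean change was -0.79 in LFA and -0.45 in LNT (exact permutation test, two-sided, p = 0.0286 for each, the smallest that 4 against 4 mice allow, and 0.114 after adjustment over 12 tests). The mean change was -0.35 in SFA and -0.36 in SNT, with SFA replicate 3, at -0.61, below all LNT mice. SNT mice split, at 0.54 and 0.45 in replicates 1 and 2 and -1.14 and -1.28 in replicates 3 and 4, so that 2 short nanotube mice lay below all LNT mice. Replicates 1 and 2 were hybridized on slide 2 and replicates 3 and 4 on slide 1. The median of the liver markers listed further on split these mice too, at -1.99, -3.44, 6.33 and 5.93 in SNT replicates 1 to 4. In LFA it was 4.75, -3.76, 5.34 and -4.12, high in the mice with the lowest Cox6a2 minus Cox6a1. In LNT it was 0.62, -2.06, 2.43 and 1.95, and there the difference rose with it. Whether liver tissue had a part in this difference was not tested. For Cox8b minus Cox8a the mean change was -0.61 in LFA (exact p = 0.0286, adjusted 0.114) and -0.41 in LNT (exact p = 0.0571, adjusted 0.137), and it was -0.30 in SFA (exact p = 0.0571, adjusted 0.137) and -0.26 in SNT. For Cox7a1 minus Cox7a2 it was -0.16 and -0.14 (exact p = 0.457 for each). None of the 12 tests passed after adjustment. Even if every long fiber test had reached the smallest p, none could have passed without the short fiber tests. This outcome therefore cannot decide whether the isoforms of a pair changed differently.

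**Figure D4:**
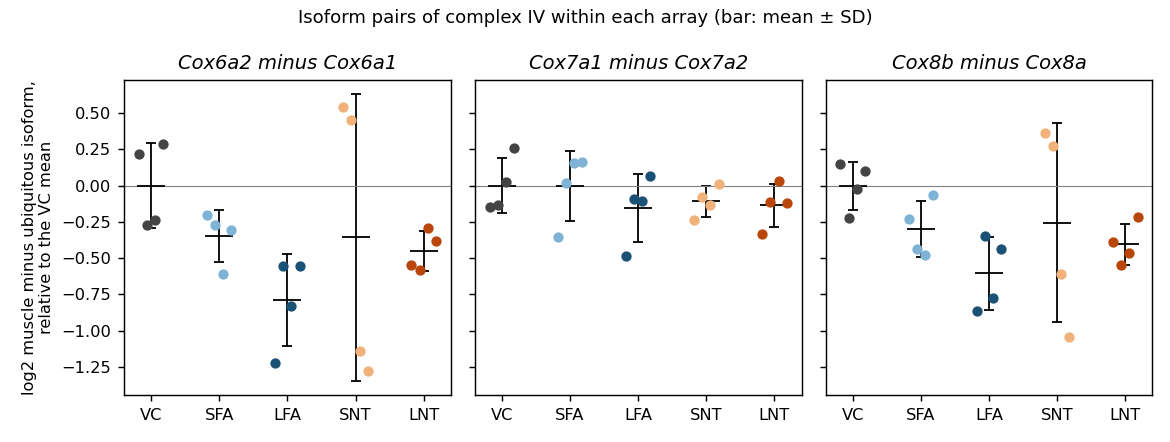
Muscle minus ubiquitous isoform of 3 complex IV subunits within each array (log2, y axis, relative to the VC mean) in each mouse by group (x axis), with the mean ± SD as a bar. For Cox6a2 minus Cox6a1 the LFA mice lie at -1.22 to -0.55, and the SNT mice form a high and a low pair.

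Complex V, the ATP synthase, stood at a median change of -0.82 for LFA and -1.04 for LNT over 15 genes, and 2 and 4 fell. Atp5d, the delta subunit of the central stalk, was named after its values were seen because VC replicate 2 was not high for it. It read 6.72, 6.61, 6.60 and 6.86 in VC, 6.07, 6.14, 6.10 and 6.68 in SFA and 5.70, 5.41, 5.50 and 6.15 in LFA. It read 6.85, 7.05, 6.69 and 5.94 in SNT and 5.70, 5.32, 5.84 and 5.45 in LNT. The long fiber mice all lay below the VC mice, and the SFA mice lay between or beside them. Atp5d fell 2.01-fold in LFA (adjusted p = 0.0330) and 2.17-fold in LNT (adjusted p = 0.0115, SE of the log2 change 0.25 in both), and both calls held without VC replicate 2 (adjusted p = 0.0488 and 0.0197).

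The membrane rotor of complex V is a ring of c subunits that 3 genes encode with the same mature protein. Atp5g1, at chr11:95934315-95934374 (mm9), read 9.13, 10.07, 8.69 and 8.97 in VC, 8.06, 7.70, 8.71 and 8.46 in LFA and 8.08, 8.30, 8.12 and 7.90 in LNT. It fell by 1.11 ± 0.28 in LNT (adjusted p = 0.0199), also without VC replicate 2 (adjusted p = 0.0496), and its change in LFA was -0.98 (adjusted p = 0.0510). The LNT mice lay below all VC mice, whereas LFA replicate 3 reached them. Atp5g2 changed by -0.63 in LFA and -0.57 in LNT, and Atp5g3, whose start region is printed above, by -0.78 and -0.94, and neither passed. The peripheral stalk subunit Atp5o fell by 1.03 ± 0.31 in LNT (adjusted p = 0.0490) and missed in LFA (-1.10, adjusted p = 0.0518), and the other stalk subunits Atp5j and Atp5f1 changed by -1.14 and -1.13 in LNT without passing. Atp5a1, the alpha subunit, fell in LFA by 0.99 ± 0.26 (adjusted p = 0.0365) and not in LNT (-0.83, adjusted p = 0.0528). It is the 1 gene of the 8 called in LFA that was not among the 37 called in LNT, and its difference between the groups did not pass.

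The assembly factors of complex I, which are not part of the finished enzyme, had medians of -0.75 in LFA and -1.05 in LNT over 4 genes, and 0 and 1 fell. Ndufaf3 read 2.46, 3.38, 2.22 and 2.72 in VC, 1.69, 1.14, 2.09 and 2.37 in LFA and 1.55, 1.72, 1.75 and 1.25 in LNT, and fell in LNT by 1.13 ± 0.29 (adjusted p = 0.0221). Ndufaf2 had the largest mean change in LNT, -1.54 ± 0.51, but the mice spread from 0.21 to 2.23 and it did not pass (adjusted p = 0.0726). Ndufaf4 changed by -0.97 in LNT and did not pass. The 3 genes matched by name only, which are not subunits, had medians of -0.77 and -0.81, and 0 were called. Where a gene had several probes, the others moved the same way: the 46 other probes of 31 genes all lay below VC in both groups, with medians of -0.94 in LFA and -1.04 in LNT.

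Long and short fibers were compared within each material at a matched dose. The short and long nanotubes came from different sources, so that length and source cannot be told apart in LNT against SNT. LNT against SNT gave a median change of -0.92 over the 89 genes, all below 0, and 22 fell, against 3.48% of all probes, 19 of them at least 2-fold, against 2.65%. At an unadjusted p below 0.05, 71 were lower, against 15.0%, and the 4 LNT mice lay below all SNT mice for 63, against 8.3%. This comparison uses no VC mouse, and VC replicate 2 enters it only through the estimate of the spread. Without that mouse the median stayed at -0.92 and 61 genes were called, against 5.8% of all probes. SNT replicate 4 lay low, and without it 41 were called, against 10.8%. The count fell to 1 without SNT replicate 2, to 2 without SNT replicate 1 or 3 or LNT replicate 1 or 4, to 7 without LNT replicate 3, to 10 without LNT replicate 2 and to 13 without SFA replicate 4, and it was 0 with the slide as a block or with unscaled signals. Without the 5 arrays of lowest index it was 74, against 11.7% of all probes. By complex the medians were -0.93 for complex I, -0.74 for II, -0.91 for III, -0.91 for IV and -0.95 for V. LFA against SFA gave a median of -0.60, and limma called 0, against 0.133% of all probes, although 30 were lower at an unadjusted p below 0.05, against 7.8%. The difference between the long minus short changes of the 2 materials was tested as an interaction. It called 0 genes (0 at an unadjusted p below 0.05) and had a median of 0.35.

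Between LFA and LNT, given at different doses, no gene of the set passed. The LFA minus LNT median was 0.16, and limma called 0 lower (0.0% of all probes) and 0 higher, with 0 at an unadjusted p below 0.05 in either direction. The change was further below 0 in LNT for 74 of 89 genes. Of the 8 genes that fell in LFA and the 37 that fell in LNT, 7 were the same, with VC shared by both. The middle 50% of the genes lay between -0.99 and -0.78 in LFA and between -1.14 and -0.94 in LNT, and the medians of the 5 complexes lay between -0.94 and -0.82 in LFA and between -1.09 and -0.93 in LNT.

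The genes around the set in energy metabolism were also lower. For the counts in this and the following lists, 564 of all 25482 genes tested fell in LFA and 1127 in LNT, and 714 and 1165 rose. The 13 subunits encoded in mitochondrial DNA had median changes of -0.91 with LFA and -0.80 with LNT, near those of the nuclear genes, and 0 and 1 (ND5) fell. ND1, a core membrane subunit of complex I, changed by -1.46 in LFA and -1.21 in LNT, and ATP8, of complex V, by -1.62 and -1.20, and neither passed, although ND1, ND2, ND5 and COX1 fell against SNT. Of 5 further subunits and factors that the name rule missed, Uqcc, a complex III assembly factor, and Cyc1, cytochrome c1, fell in both groups. Uqcc fell by 1.30 ± 0.25 in LFA (adjusted p = 0.00858) and by 1.25 ± 0.25 in LNT (adjusted p = 0.00576), while 2010107E04Rik changed by -0.94 and -1.07. Of 28 other assembly factors tested, 1 fell in LFA and 4 in LNT, with medians of -0.55 and -0.71. The LFA count was close to the share over all genes. Ecsit, which works in complex I assembly and in innate immune signaling, fell by 1.31 ± 0.29 and 1.36 ± 0.29 (adjusted p = 0.0171 and 0.00761), and Cox17, a copper chaperone for complex IV, fell in LNT by 1.31 ± 0.37 (adjusted p = 0.0360).

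Among 23 regulators of mitochondrial biogenesis, 3 fell in LFA and 4 in LNT, and none rose. Ppargc1a, the coactivator PGC-1α that drives the expression of oxidative genes in muscle, read 4.69, 5.51, 3.93 and 3.22 in VC, 2.38, 2.17, 3.10 and 2.82 in LFA and 2.12, 2.61, 1.86 and 1.85 in LNT. It fell by 1.72 ± 0.43 in LFA (adjusted p = 0.0332) and by 2.23 ± 0.43 in LNT (adjusted p = 0.00443), a larger change than that of any gene of the set. Ppara, a nuclear receptor for fatty acid oxidation, fell by 1.27 ± 0.33 and 1.79 ± 0.33 (adjusted p = 0.0387 and 0.00316). Esrra fell in both groups and Esrrb in LNT. The list's median was only -0.52 in each group. Of the 23, 0 were called in LFA and 2 in LNT once VC replicate 2 was left out.

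Genes of substrate pathways fell too. Of 18 citric acid cycle genes, 4 fell in LFA and 7 in LNT, with medians of -0.88 and -0.96. Idh3b, a subunit of isocitrate dehydrogenase, fell by 1.15 ± 0.28 and 1.19 ± 0.28 (adjusted p = 0.0277 and 0.0136). Of 12 genes of adenylate transport and uncoupling, 3 and 4 fell, with medians of -0.82 and -0.74. They included Slc25a12, the aspartate-glutamate carrier (-1.16 and -0.98), and Ckmt2, the creatine kinase of muscle mitochondria (-0.97 and -1.01). Of 19 glycolysis genes, 15 lay below VC in LFA and 14 in LNT, where 16338 and 16336 of all 25482 genes tested did. Of the glycolysis genes 5 and 7 fell, with medians of -0.69 and -0.74. Without VC replicate 2 the genes that fell numbered 1 and 2 in the citric acid cycle, 0 and 0 in adenylate transport, and 1 and 2 in glycolysis. Pgam2, the muscle phosphoglycerate mutase, fell by 1.15 ± 0.28 and 1.30 ± 0.28 (adjusted p = 0.0295 and 0.00866). The 1 glycolysis gene that rose was Hk3, a hexokinase of myeloid cells, by 2.12 ± 0.47 in LNT (adjusted p = 0.00999).

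Muscle markers fell beside the set and macrophage markers rose. Of 20 skeletal muscle markers, 6 fell in LFA and 9 in LNT, with medians of -1.07 and -1.12. Pvalb, the parvalbumin of fast fibers, and Actn3, the alpha-actinin of fast fibers, fell in LNT by 1.95 ± 0.44 and 2.01 ± 0.57 (adjusted p = 0.0114 and 0.0367). The median of the list per mouse ranged from 0.43 to 0.91 for VC, from 0.06 to 0.42 for SFA, from -0.65 to -0.24 for LFA, from -0.30 to 1.14 for SNT and from -0.57 to -0.33 for LNT. The LFA and LNT mice lay below all VC and SFA mice. The median of the oxidative phosphorylation genes minus that of the muscle markers in the same mouse averaged -0.17 ± 0.47 for VC mice, -0.02 ± 0.27 for SFA, -0.04 ± 0.27 for LFA, -0.08 ± 0.51 for SNT and -0.17 ± 0.38 for LNT (SD, n = 4). These means differed by less than the spread between mice of any group, but the VC mean and spread rested on replicate 2. The difference was -0.26, 0.52, -0.47 and -0.48 in VC replicates 1 to 4, -0.07, -0.38, 0.28 and 0.01 in LFA and -0.31, 0.35, -0.16 and -0.55 in LNT. LFA replicates 1, 3 and 4 lay above the VC mice other than replicate 2, whereas LFA replicate 2 lay among them. The LNT mice lay on both sides of these VC mice. Without VC replicate 2, 1 and 3 muscle markers were called, with medians of -0.95 and -1.12.

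**Figure D5:**
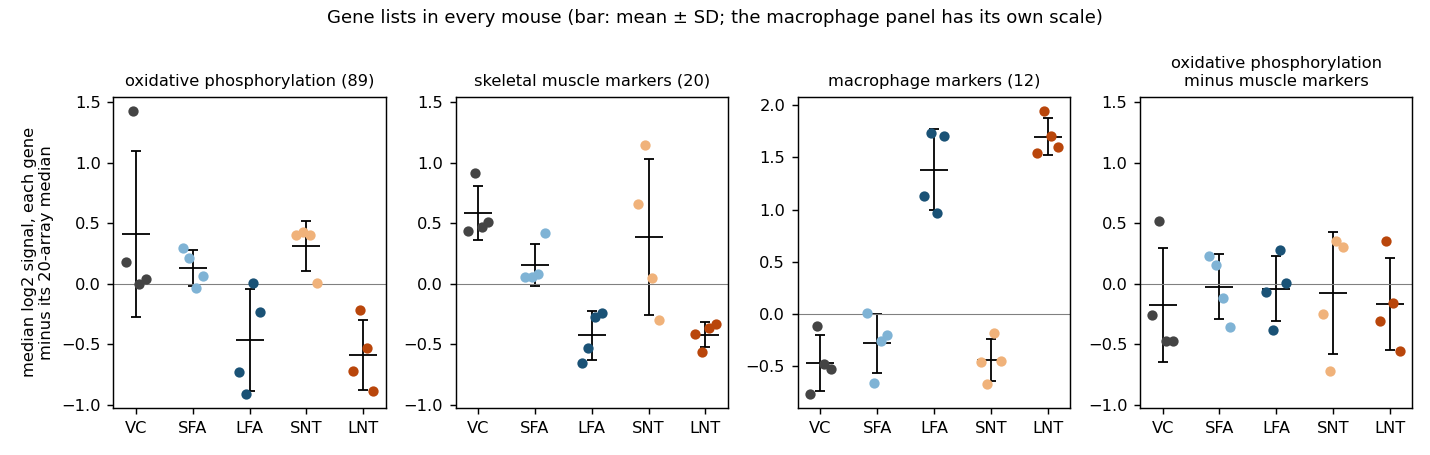
Median log2 signal (y axis, each gene minus its 20-array median) of the oxidative phosphorylation genes, of skeletal muscle markers and of macrophage markers in each mouse, and the first minus the second, by group (x axis), with the mean ± SD as a bar. The macrophage panel has its own scale and reaches 1.95 in LNT. In the difference panel the group means lie between -0.17 and -0.02, and VC replicate 2, at 0.52, lies far above the other VC mice.

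Of 12 macrophage markers, 10 rose in LFA and 11 in LNT, and the median change was 1.93 and 2.35. Trem2, a receptor of lipid-laden and tissue macrophages, rose by 3.53 ± 0.39 and 4.34 ± 0.39 (adjusted p = 1.13e-04 and 8.86e-06), and Msr1, a scavenger receptor, by 3.13 ± 0.49 and 3.01 ± 0.49 (adjusted p = 0.00187 and 0.00119). The list's median per mouse was -0.76 to -0.11 for VC, -0.66 to 0.01 for SFA, 0.97 to 1.73 for LFA, -0.67 to -0.18 for SNT and 1.54 to 1.95 for LNT, so that long fiber mice and the others did not overlap. Of 9 fibroblast markers, 2 rose in LFA and 6 in LNT, with medians of 0.93 and 1.49. Fn1 (fibronectin) rose by 2.33 and 2.38 and Col3a1 by 1.20 and 1.64. The part that a changed mixture of cells had in the fall of the oxidative phosphorylation genes was not tested.

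The other cell types gave fewer calls. Of 8 white adipocyte markers, 1 fell in LFA and 4 in LNT, with medians of -0.83 and -1.14, Cidec by 1.03 and 1.53 and Retn in LNT by 1.95. Of 6 brown adipocyte markers 0 were called, with medians of -0.55 and -1.50 (Ucp1 -0.89 and -2.17, Cidea -1.20 and -1.81). Of 7 B and plasma cell markers 1 rose in each group, Igj, the antibody joining chain, by 3.02 and 3.34, while Sdc1 changed by 1.73 and 1.60. Of 6 T cell markers 0 and 1 rose, Cd5, by 1.71 in LNT, with Cd3d at 1.28 and 1.34. Of 7 granulocyte and 9 mesothelial markers 0 were called against VC, with Ngp at -0.11 and -1.25, S100a8 at 1.01 and 0.06, Wt1 at 0.93 and 0.70 and Upk3b at -0.61 and -0.98. Of 8 liver markers 0 were called, but their median per mouse ran from -5.01 to 6.33 (Alb at 2.80 ± 2.97 in LFA and 3.81 ± 2.97 in LNT, Fgb at 2.93 and 3.05). That range crossed all groups. Of 6 lung markers 4 were not well above background and the others, Ager and Scgb1a1, were not called (0.18 and -0.62 in LFA, 0.41 and 0.27 in LNT).

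Promoter motifs were counted in the RefSeq start regions from 250 bases before to 50 bases after the start, which were used for 75 of the 91 genes. Chromosome 18, where Ndufa2 lies, was left out for the set and for all coding genes. NRF1, a factor for respiratory genes, had its motif CGCATGCG in 11 (14.7%), against 2.77% of 17492 coding genes. The YY1 letters AAGATGGC were in 11 (14.7%, against 3.57%), the GABP letters CCGGAAG in 17 (22.7%, against 12.9%) and the ERR letters TCAAGGTCA in 2 (2.67%, against 0.377%). GGGCGG, the SP1 motif, was in 34 (45.3%, against 49.2%), TATAAA in 7 (9.33%, against 14.8%) and the MEF2 letters CTAAAAATA in 0 (against 0.475%). Both strands were read, and no count was tested. Genes with and without a motif had similar changes. The 11 with NRF1 had medians of -0.89 in LFA and -1.04 in LNT, against -0.88 and -1.07 in the 63 tested genes without it, the 11 with YY1 -0.95 and -1.13 against -0.88 and -1.05, and the 17 with GABP -0.89 and -1.10 against -0.88 and -1.05. Cycs and Cox6a1, both with NRF1 letters in the runs printed above, changed by -1.26 and -0.58 in LNT, and Cox8b, with none of the marked letters, by -1.14.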

How the data were processed

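The authors deposited 1-color Agilent scanner files for 20 arrays, which hold spot intensities from Feature Extraction 10.7.3.1 after background subtraction, and a table of log2 group means that the authors normalized in GeneSpring and centered on each probe's median, pooled to 1 value per group and used only as an alternative. Control and outlier spots were left out, and each processed intensity was expressed as log2 minus the array's 75th percentile. A probe was kept when 4 or more arrays, whatever their group, gave it a signal well above background. This left 36920 of 55681 probes, tested in 1 model of the 5 groups with limma 3.58.1 in R 4.3.3. The p-values were adjusted by the Benjamini-Hochberg method. Other steps used Python 3.11.15, pandas 2.3.3, numpy 2.4.6 and scipy 1.17.1. The procedure was tested on simulated data. Probe positions are on mm9, as the file headers give them. No sample had columns of another study. The number of arrays limits the precision.

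The genes and the gene lists were chosen with earlier results of these data known. Genes named with values were Sdha to Sdhd and Cycs, the isoform families, the 3 genes per complex with the largest mean change in LFA and LNT, and the 12 largest of the 36 called with at least a 2-fold change. In other lists the 2 largest were named. ND2, ND5, COX1, Cyc1, Esrra, Esrrb, Atp5d, Atp5a1 and Ndufs7 were added after their values were seen. Some genes that these rules name are not reported here. The 5′ to 3′ index compares probes at least 1000 bases apart in 1595 transcripts. Besides leaving out each mouse in turn, 16 alternatives and the authors' group means were computed.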

Additional observations from a re-analysis of the deposited data

Results flagged for a closer look

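Single mice stood far from the other 3 of their group in 38 of the 225 groups of values examined by Dixon's criterion, where chance gives about 1 in 20, and since the genes move together these are not independent. VC replicate 2, the dimmest array, was high in the median over all 89 genes (1.43), in complexes I (1.47), II (1.37), III (1.48), IV (1.26) and V (1.49) and in the assembly factors (0.99), each gene centered on its 20-array median. On the log2 scale relative to the 75th percentile the same mouse was high in Sdhd (8.17), Cycs (9.38), Cox4i1 (9.67), Cox7a1 (10.31), Cox7b (9.25), Cox8a (8.43), Cox8b (9.60), Atp5g2 (8.88), Atp5g3 (9.57), Ndufb5 (8.47), Uqcrfs1 (8.23), Atp5j (8.77), Ndufaf2 (4.09), Ndufa5 (9.59) and Ndufa3 (9.21).

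SNT replicate 4 was low in the median over all genes (0.0054), in complex I (0.0015) and in complex IV (-0.0905). It was also low in Cox6b1 (4.47), Cox7a1 (8.82), Cox8b (7.94), Ndufa4 (2.92), Ndufa4l2 (1.46), Uqcr11 (8.18) and Ndufa11 (3.59). Cox4i1 was low in SFA replicate 3 (8.40) and high in LNT replicate 2 (8.13), which was also high in Atp5g3 (8.30) and low in Ndufa4 (3.31). Cox8a was high in SFA replicate 2 (7.93), and Ndufa4 was at 0.41 in LFA replicate 3.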

How the results depend on the processing

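The median change relative to all genes kept its direction for LFA against VC, LNT against VC, LFA against SFA and LNT against SNT under all alternatives, and no value of a named gene past the threshold changed sign. For signals without scaling and scaling to the median that direction was fixed in advance, since both move all genes of an array alike. Of 3088 values of named genes, 2610 kept their side of the threshold, 332 lost it and 146 gained it. The counts of called genes depended on the setting, and the causes were not tested. So did the share of all probes called lower. For LFA, LNT and LNT against SNT it was 2.09%, 4.01% and 3.48% with the processing used above. With the 5′ to 3′ index as a covariate it was 8.35%, 11.7% and 10.6%, and without the lowest-index arrays 3.46%, 2.71% and 11.7%. For the other settings of this paragraph only counts are given. Signals without scaling, scaling to the median and leaving out the array of lowest 5′ to 3′ index in each group were chosen after seeing the data. For LFA, LNT and LNT against SNT (8, 37 and 22 genes), quantile normalization gave 4, 5 and 4, signals without scaling 0, 0 and 0, scaling to the median 0, 1 and 1, normexp background 25, 61 and 54, and no filter on dim probes 1, 16 and 11. The slide block gave 1, 2 and 0, array brightness as a covariate 1, 1 and 1, the 5′ to 3′ index 76, 79 and 80, leaving out the lowest-index arrays 21, 38 and 74 (and 2 in LFA against SFA), quality weights 36, 80 and 84, only the groups compared 0, 7 and 9, and the unequal-variance test 0, 2 and 2. The scan day gave 2 for LNT and 0 for LNT against SNT. Probes above background on all arrays gave 21 for LFA and 38 for LNT against SNT, and the mean of all probes of a gene 25 and 35. Quality weights gave 1 gene in SFA and 1 in LFA against SFA. The relative median of LNT against SNT was -0.36 with quantile normalization and -0.20 with brightness as a covariate, and that of LFA against SFA was -0.11 with brightness. From the authors' group means the set stood at -0.64 in LFA and -0.80 in LNT relative to all genes.

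With each mouse left out in turn, the counts ran from 0 to 23 in LFA, 3 to 45 in LNT and 1 to 61 in LNT against SNT, and stayed at 0 in the other comparisons. In LFA the count was 0 without LFA replicate 1 or 2, 1 without VC replicate 1 or 2, 2 without VC replicate 4, 3 without LFA replicate 4 or LNT replicate 1, 4 without LNT replicate 4, 12 without LFA replicate 3 and 23 without SNT replicate 4. In LNT it was 3 without LNT replicate 4, 4 without LNT replicate 1, 5 without VC replicate 2 and 15 without LNT replicate 3. In LNT against SNT it was 1 without SNT replicate 2, 2 without SNT replicate 1 or 3 or LNT replicate 1 or 4, 7 without LNT replicate 3, 10 without LNT replicate 2, 13 without SFA replicate 4, 41 without SNT replicate 4 and 61 without VC replicate 2. The share of all probes called lower without SNT replicate 4 was 5.8% in LFA, 5.85% in LNT and 10.8% in LNT against SNT. Without VC replicate 2 it was 0.821%, 1.89% and 5.8%. The relative median ran from -0.80 to -0.39 in LFA, -0.91 to -0.51 in LNT, -0.83 to -0.60 in LNT against SNT and -0.58 to -0.29 in LFA against SFA. It crossed 0 without VC replicate 2 in SFA (-0.31 to 0.03) and SNT (-0.14 to 0.21).

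Replicate numbers did not pair the mice. Over 40 same-numbered pairs the correlation of deviations from the group means ran from -0.68 to 0.69 (median -0.09), 14 were over 0.1, and 4 of 20 arrays correlated best with their own number. The replicate block gave 3 genes in LFA, 21 in LNT and 11 in LNT against SNT.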
